A study of Rattus norvegicus with 68 samples.

Results

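Blood transcripts of rats killed 6 h after 2500 mg/kg acetaminophen were set against those of rats killed 6 h after 150 mg/kg, a contrast of doses within a single time. The arrays were chosen by the dose and time on their labels: 16 of the 68 arrays of the series, or 8 of its 34 rats. The rats given 2500 mg/kg were numbers 3595, 3596, 3597 and 3598, and those given 150 mg/kg were numbers 3587, 3588, 3589 and 3590. All were male F344/N rats, an inbred strain, 10 to 12 weeks old, and all received the drug by gavage in 0.5% ethyl cellulose, split over 2 gavages. The 1500 mg/kg group at 6 h (4 rats) is given where it shows how the difference stands by dose. The same contrast at 24 h (8 rats) and at 12 h (4 rats of 2500 mg/kg, 3 of 150 mg/kg) shows how it stands by time.

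For each rat 2 arrays with exchanged dyes set its blood against vehicle-treated control blood of 6 h. The control is described as a pool of 4 animals, while the labels carry the number of 1 rat, 3586. The same control enters both doses and cancels in their difference. A value below is the log2 ratio of a rat to that control, averaged over its 2 arrays, and a difference is the mean at 2500 mg/kg minus the mean at 150 mg/kg. The direction of the deposited ratio was taken as Cy5 over Cy3, which is likely but not stated, and the opposite one would turn every sign. Ratios hold no levels, so the blood label was not checked against the levels of blood cell markers. The number of rats limits the precision of every value.

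Acetaminophen at ordinary doses is cleared by the liver as glucuronide and sulphate conjugates. At high doses more of it is oxidised by cytochrome P450 enzymes to a reactive quinone imine, which uses up glutathione and injures hepatocytes. Whole blood carries the transcripts of white cells, of young red cells and of platelets, and the arrays read the mixture.

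The 4 rats of 2500 mg/kg were not alike. Over all 22075 probes the values of rats 3597 and 3598 correlated with r = 0.82, while the 5 other pairs of that group lay between 0.06 and 0.15. Pairs within the 150 mg/kg group lay between 0.05 and 0.30, and pairs within the 1500 mg/kg group between 0.52 and 0.73. Rats 3597 and 3598 correlated with the 4 rats of 1500 mg/kg at 0.57 to 0.77, while rats 3595 and 3596 did so at -0.13 to 0.28. Among arrays of one dye orientation at 6 h, the Cy5 array of rat 3595 had a median correlation of 0.68 with the others and the Cy3 array of rat 3588 had 0.71, against 0.77 or more for the remaining arrays. Results without these arrays and without these rats are given below.

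At 6 h, 14 of 9653 genes differed between 2500 and 150 mg/kg, 0.145% of those tested (limma, Benjamini-Hochberg adjusted p under 0.05). Of these, 12 were lower at 2500 mg/kg (0.124%) and 2 were higher (0.0207%), and in all 14 the rats of both doses did not overlap. Over all genes, rats did not overlap for 245 that were higher (2.54%) and 331 that were lower (3.43%). At an unadjusted p under 0.05 there were 666 genes (6.9%), 277 higher (2.87%) and 389 lower (4.03%). Without rat 3587 the count of called genes was 3, without rat 3588 it was 4 and without rat 3590 it was 9, and leaving out any other of the 8 rats gave 12 to 14. Clec4a3, Gnaz and Dusp22 kept their calls whichever of the 8 rats was left out. Among probes, 18 of 22075 passed, 17 lower (0.077%) and 1 higher (0.00453%), and 12 of them carried a gene name. The count of probes was 9, 3, 8 and 7 without rats 3587, 3588, 3597 and 3598.

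Clec4a3 had the largest difference of the 14. It codes for a C-type lectin receptor of myeloid cells. Its log2 ratios were -1.74, -2.57, -3.03 and -3.47 in rats 3595, 3596, 3597 and 3598 at 2500 mg/kg, against -0.29, -0.27, -0.54 and -0.41 in rats 3587, 3588, 3589 and 3590 at 150 mg/kg. All rats of both doses were below the vehicle control, and the highest rat of 2500 mg/kg lay well under the lowest rat of 150 mg/kg. The difference was -2.32 ± 0.31 (SE; 95% interval -2.95 to -1.69; limma adjusted p = 0.000398), or 5.01-fold lower at 2500 mg/kg. It was -2.24 on the arrays with the treated rat in Cy5 and -2.41 on those with it in Cy3. The call was lost when the 8 rats were fitted alone (adjusted p = 0.101).

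Both dual-specificity phosphatases among the 14 were lower. Dusp6, which inactivates the MAP kinase ERK and is induced by ERK signalling, had log2 ratios of -1.44, -1.41, -2.03 and -1.79 at 2500 mg/kg, against -0.29, -0.34, -0.56 and -0.37 at 150 mg/kg. Its difference was -1.28 ± 0.24 (SE; adjusted p = 0.0114), and both of its probes passed on their own, at -1.40 and -1.15. The call was lost without rat 3587 (adjusted p = 0.0566), rat 3588 (0.0694) or rat 3597 (0.0619), while the difference stayed between -1.16 and -1.26. Dusp22, a phosphatase that acts on JNK signalling, had -1.17, -1.05, -1.73 and -1.50 at 2500 mg/kg, against -0.40, -0.33, -0.53 and -0.42 at 150 mg/kg. It was lower by a factor of 1.92 (difference -0.94 ± 0.16; adjusted p = 0.00928). The rats of 150 mg/kg were also below the control as averages of both dyes, and Dusp22 was the 1 gene of the 14 that passed there as well (mean -0.42, limma adjusted p = 0.0448). With the treated rat in Cy3 those rats read -0.85 to -0.53, but in Cy5 -0.53 to 0.11, so the fall at 150 mg/kg rests mostly on 1 dye orientation. The difference between doses was -0.97 in Cy5 and -0.91 in Cy3.

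Spib, a transcription factor of B cells and plasmacytoid dendritic cells, had log2 ratios of -1.34, -1.17, -1.70 and -1.52 at 2500 mg/kg. At 150 mg/kg they were -0.16, 0.23, -0.37 and -0.24, so that rat 3588 stood above the control and the other rats slightly below it. The difference was -1.29 ± 0.23 (SE; adjusted p = 0.0114), and the call was lost without rat 3587 (adjusted p = 0.0561) or rat 3588 (0.0694). Ramp1, a partner protein that makes the calcitonin receptor-like receptor bind CGRP, had -1.22, -1.22, -2.24 and -1.84 at 2500 mg/kg, against -0.52, 0.24, -0.63 and -0.38 at 150 mg/kg. Rats 3597 and 3598 were the lowest, and rat 3588 the highest. The difference was -1.31 ± 0.27 (adjusted p = 0.0354), and the call was lost without rat 3587, 3588, 3590, 3597 or 3598, with adjusted p from 0.0641 to 0.23. Dgkg, a kinase that turns diacylglycerol into phosphatidic acid, had -0.86, -1.04, -1.82 and -1.66 at 2500 mg/kg, against -0.21, -0.07, -0.16 and -0.49 at 150 mg/kg. Again rats 3597 and 3598 were the lowest. Its difference of -1.12 ± 0.20 (adjusted p = 0.0114) became -0.96 without rat 3597 (0.0619), -1.01 without rat 3598 (0.0574), -1.11 without rat 3587 (0.0561) and -1.06 without rat 3588 (0.0694). It was -0.77 on the Cy5 arrays, where the call was lost (0.241), and -1.46 on the Cy3 arrays.

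Genes of membrane traffic and the cytoskeleton were also among the 12. Myof, a ferlin of membrane repair and endocytosis, had log2 ratios of -1.34, -1.11, -1.50 and -1.41 at 2500 mg/kg, against -0.19, -0.23, -0.35 and -0.43 at 150 mg/kg. The rats of each dose lay close together, and the difference was -1.04 ± 0.19 (SE; adjusted p = 0.0114). The call was lost without rat 3587 (adjusted p = 0.0561) or rat 3588 (0.0694). Vamp4, a SNARE protein of the trans-Golgi network, had -1.25, -1.29, -1.07 and -0.80 at 2500 mg/kg, against -0.03, -0.01, -0.33 and -0.01 at 150 mg/kg. Its difference was -1.01 ± 0.19 (adjusted p = 0.013), but only -0.15 on the arrays with the treated rat in Cy5 and -1.87 on those with it in Cy3, so its size rests on 1 dye orientation. The call was lost without rats 3587, 3588, 3590, 3595 or 3596 (adjusted p from 0.0559 to 0.072). Crip1, a small LIM-domain protein, had -1.16, -1.30, -1.51 and -1.04 at 2500 mg/kg, against -0.23, -0.15, -0.42 and -0.27 at 150 mg/kg, a difference of -0.98 ± 0.18 (adjusted p = 0.0114). Its call was lost without rat 3587, 3588 or 3597 (adjusted p from 0.0561 to 0.0694).

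Swap70, which binds actin and activates Rac, showed a difference of -0.76 ± 0.14 (SE; adjusted p = 0.0114) as the mean of 3 probes. Its log2 ratios were -0.68, -0.92, -0.80 and -0.85 at 2500 mg/kg, against -0.05, 0.03, -0.12 and -0.06 at 150 mg/kg. A single probe differed by -2.33 (adjusted p = 0.0179) and the others by 0.02 each, so the probes disagree, and with the median over probes the difference was -0.01. The call was also lost without rat 3587, 3588 or 3596 (adjusted p from 0.0519 to 0.0705) and on the arrays with the treated rat in Cy5 (0.131).

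The remaining lower genes act in DNA replication and in translation. Mcm5, a subunit of the replicative helicase, had log2 ratios of -0.42, -1.49, -0.46 and -0.96 at 2500 mg/kg, against -0.17, 0.19, -0.18 and -0.15 at 150 mg/kg. Its difference was -0.76 ± 0.16 (SE; adjusted p = 0.0433). It was the least steady of the 14: on the Cy3 arrays of rats 3596 and 3598 the values were -3.12 and -1.91, on their Cy5 arrays 0.15 and -0.02. Its call was lost without rat 3587, 3588, 3589, 3590, 3596 or 3598 (adjusted p from 0.0817 to 0.257). Eef2, the factor that moves the ribosome along the mRNA, had -0.66, -0.44, -0.96 and -0.70 at 2500 mg/kg, against -0.18, -0.28, -0.16 and -0.17 at 150 mg/kg, a difference of -0.49 ± 0.09 (adjusted p = 0.0114). All rats of both doses were below the control. The call was lost without rat 3587, 3590 or 3597 (adjusted p from 0.0549 to 0.0636). Eef2 differed by -0.68 on the arrays with the treated rat in Cy5 and by -0.31 on those with it in Cy3, where the call was lost (0.176).

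Among the 2 higher genes, Gnaz had the tighter groups. It codes for the G protein subunit alpha z, which inhibits adenylyl cyclase and is abundant in platelets and neurons. Its log2 ratios were 0.99, 0.77, 0.78 and 0.75 at 2500 mg/kg, against 0.04, -0.05, -0.03 and 0.01 at 150 mg/kg. All rats of 2500 mg/kg were above the control and those of 150 mg/kg lay at it. The difference was 0.83 ± 0.14 (SE; 95% interval 0.55 to 1.11; adjusted p = 0.00911), or 1.78-fold. It was 1.42 on the arrays with the treated rat in Cy3 (adjusted p = 0.000171) and 0.24 on those with it in Cy5 (0.956). The rats of 2500 mg/kg were above 0 in both orientations, while those of 150 mg/kg read between 0.26 and 0.59 in Cy5 and between -0.60 and -0.30 in Cy3.

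Fkbp5, a co-chaperone of the glucocorticoid receptor that glucocorticoids induce, was the other higher gene. Its log2 ratios were 0.84, 0.87, 0.26 and 0.37 at 2500 mg/kg, against 0.02, -0.04, 0.11 and 0.10 at 150 mg/kg. Rats 3595 and 3596 were clearly above rats 3597 and 3598, which themselves stood above all rats of 150 mg/kg. The difference was 0.54 ± 0.11 (SE; 1.45-fold; adjusted p = 0.0369) as the mean of 3 probes, which differed by 1.24, 0.27 and 0.11, none past the threshold alone. Leaving out any rat but 3597 or 3598 lost the call (adjusted p from 0.0779 to 0.226), as did the median over probes (0.45). On the arrays with the treated rat in Cy5 Fkbp5 differed by 0.35 without passing (0.27), and on those with it in Cy3 by 0.73.

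Since only 2 genes passed in that direction, the next by unadjusted p are given as values that did not pass. Hbs1l, a factor that rescues stalled ribosomes, differed by 0.40 (adjusted p = 0.0675), and Wdr26, a subunit of the CTLH ubiquitin ligase, by 0.65 (0.0939). Ddit3, which codes for the stress transcription factor CHOP, had log2 ratios of 0.77, 0.99, 0.26 and 0.38 at 2500 mg/kg, against -0.18, 0.08, -0.02 and -0.14 at 150 mg/kg (difference 0.66; adjusted p = 0.106). Prelid3b, a PRELI-domain protein, had 1.35, 1.13, 1.20 and 0.46 at 2500 mg/kg, against -0.01, 0.21, 0.27 and 0.40 at 150 mg/kg (0.82; 0.124). The values of Prelid3b at 150 mg/kg average opposite readings, 0.96 to 1.37 with the treated rat in Cy5 and -0.98 to -0.32 in Cy3. Those of Hbs1l do likewise, with 0.18 to 0.37 in Cy5 and -0.66 to -0.24 in Cy3. In both genes the rats of both doses overlapped on the Cy5 arrays.

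**Figure D1:**
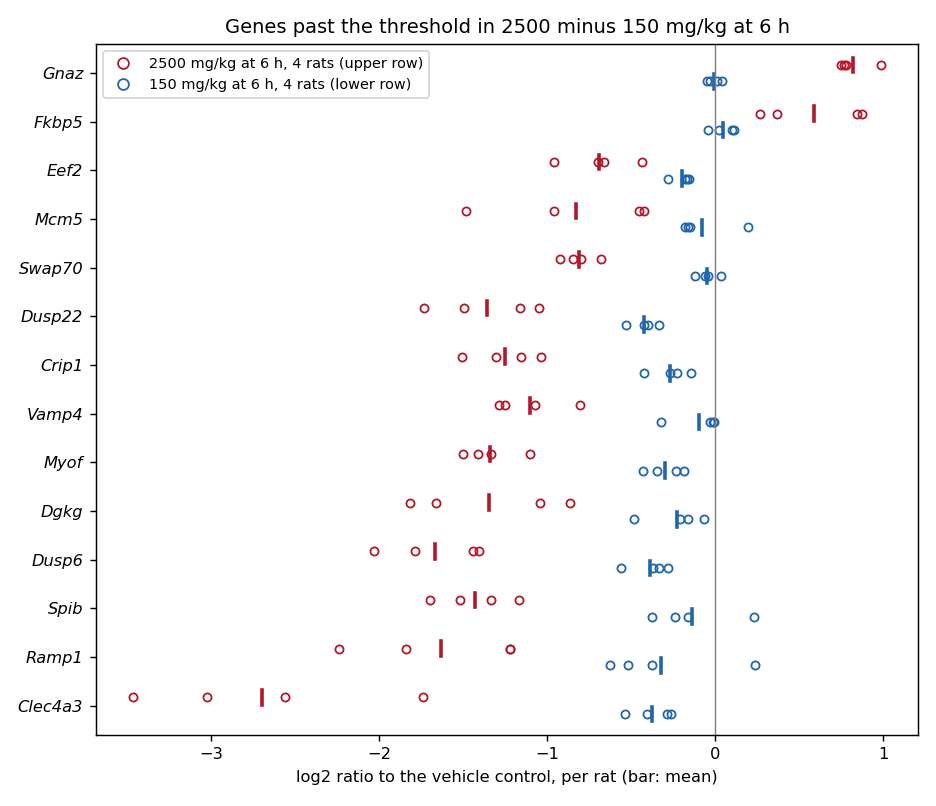
Log2 ratio to the vehicle control (horizontal axis) of each rat for the 14 genes past the threshold in 2500 minus 150 mg/kg at 6 h; circles are rats (2500 mg/kg in the upper row of a gene, 150 mg/kg in the lower, n = 4 each) and bars are group means. In every gene the rats of both doses are separate, and Clec4a3 lies lowest at 2500 mg/kg, between -3.47 and -1.74.

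Of the called genes with a promoter entry, Fkbp5 was higher at the larger dose and the others were lower. Promoters of both directions were read as a single set, to show the sequence next to the called genes. They are 300 bases long (250 before and 50 after the start of transcription), from RefSeq on the rat GRCr8 build, and 13 of the 14 genes had an entry, Crip1 with 2, which makes 14 promoters. The motifs searched on both strands, 7 in all, were TGACNNNGC (the core of the antioxidant response element), GAANNTTC (heat shock element core), TGANTCA (AP-1), an NF-kB-like motif (3 G, any 4 bases, 3 C), the glucocorticoid response element, TGACGTCA (cAMP response element) and CACGTG (E-box). The promoters below are those of the gene with the largest difference, which holds no match, and of 3 others that hold one. Capitals mark a motif match, and all 4 are written 5′ to 3′ on the gene's strand. They lie at chr4:157886508-157886807 on the plus strand (Clec4a3), chr17:34039846-34040145 on the minus strand (Dusp22), chr1:104161246-104161545 on the minus strand (Spib) and chr7:9189189-9189488 on the minus strand (Eef2).
Clec4a3: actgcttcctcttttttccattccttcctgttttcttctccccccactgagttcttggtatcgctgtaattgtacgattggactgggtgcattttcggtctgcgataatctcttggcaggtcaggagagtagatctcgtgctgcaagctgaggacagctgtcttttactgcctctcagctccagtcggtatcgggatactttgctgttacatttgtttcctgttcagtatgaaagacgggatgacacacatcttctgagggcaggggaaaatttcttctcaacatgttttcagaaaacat
Dusp22: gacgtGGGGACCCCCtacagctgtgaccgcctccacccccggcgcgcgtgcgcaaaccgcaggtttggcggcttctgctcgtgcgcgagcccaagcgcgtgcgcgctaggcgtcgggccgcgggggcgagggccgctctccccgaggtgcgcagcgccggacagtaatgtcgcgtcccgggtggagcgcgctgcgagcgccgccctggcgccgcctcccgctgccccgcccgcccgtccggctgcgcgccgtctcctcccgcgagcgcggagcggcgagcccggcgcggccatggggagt
Spib: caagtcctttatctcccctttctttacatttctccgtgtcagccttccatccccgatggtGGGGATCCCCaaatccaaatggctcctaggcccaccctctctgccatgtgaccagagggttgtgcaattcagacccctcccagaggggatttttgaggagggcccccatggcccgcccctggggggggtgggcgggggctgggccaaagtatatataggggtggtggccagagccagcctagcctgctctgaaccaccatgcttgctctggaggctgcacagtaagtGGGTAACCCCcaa
Eef2: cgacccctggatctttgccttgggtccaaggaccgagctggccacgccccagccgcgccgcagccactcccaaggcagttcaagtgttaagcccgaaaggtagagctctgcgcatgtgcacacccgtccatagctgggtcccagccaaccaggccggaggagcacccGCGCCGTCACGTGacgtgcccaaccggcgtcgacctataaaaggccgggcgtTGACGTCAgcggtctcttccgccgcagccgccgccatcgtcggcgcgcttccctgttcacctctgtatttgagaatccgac

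The NF-kB-like letters were in 3 of the 14 promoters (21.4%), those of Dusp22, Dgkg and Spib, against 11.6% of all 33469 promoters in the table. Spib held them at bases 61 to 70 and 288 to 297. The full cAMP response element was in 2 (14.3%), those of Eef2 and Mcm5, against 1.83% of all promoters. In Eef2 it lay at bases 220 to 227, and an antioxidant element core at bases 168 to 176 overlapped an E-box at bases 175 to 180. The antioxidant core was in 2 of the 14 (14.3%, against 12.1% of all), the heat shock core in 1 (7.14%, against 8.59%) and the E-box in 1 (7.14%, against 6.42%). No promoter of the 14 held the AP-1 letters (7.33% of all) or the glucocorticoid element (0.415% of all), that of Fkbp5 included. Of the 14 promoters, 8 held no match. The GC share was 45.7% in Clec4a3 and 55.0% to 78.7% in the other promoters, against a median of 51.7% over all promoters. The shares over all promoters were not matched for GC, so they are no fair background for motifs rich in G and C. These are matches of letters in a short window and were not tested.

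The 1500 mg/kg rats of 6 h show how the 14 genes stood by dose. Their mean lay between those of 150 and 2500 mg/kg in 11 genes, and beyond or beside 2500 mg/kg in Eef2, Crip1 and Ramp1. The 14 were chosen for the gap between the outer doses, which by itself makes a mean in between likelier. The share over all genes was not counted. A mean in between did not make the doses separate: in Dgkg, Spib and Vamp4, among others, the rats of 1500 and 2500 mg/kg overlapped. Clec4a3 averaged -0.38 ± 0.13 at 150 mg/kg, -1.25 ± 0.38 at 1500 mg/kg and -2.70 ± 0.74 at 2500 mg/kg (SD, n = 4 rats each). Gnaz averaged -0.01 ± 0.04, 0.34 ± 0.25 and 0.82 ± 0.11 over the same doses, and Myof -0.30 ± 0.11, -0.78 ± 0.11 and -1.34 ± 0.17. In these genes the means followed the order of the doses. Gnaz did not do so on the arrays with the treated rat in Cy5 alone. There it read 0.26 to 0.59 at 150 mg/kg, -0.17 to 0.32 at 1500 mg/kg and 0.46 to 0.87 at 2500 mg/kg. Ramp1, in contrast, averaged -0.32 ± 0.39, -1.65 ± 0.20 and -1.63 ± 0.50, and Eef2 -0.20 ± 0.06, -0.83 ± 0.10 and -0.69 ± 0.22, with the means of both higher doses apart by less than the SD at 2500 mg/kg. All 14 passed against the vehicle control at 1500 and at 2500 mg/kg (limma, adjusted p under 0.05), where 12.7% and 7.72% of all genes passed, and 1 of the 14 passed at 150 mg/kg, where 2% of all genes did. A test against the control leaves out the control's own spread. The tests at 2500 and at 150 mg/kg also reuse the rats by which the 14 were chosen, so their shares are description only.

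Between 2500 and 1500 mg/kg at 6 h, 0 of 9653 genes passed (0%; limma), with 272 (2.82%) at an unadjusted p under 0.05. Between 1500 and 150 mg/kg, 4 genes passed (0.0414%), and Crip1 and Eef2 were 2 of them. Clec4a3 stood at -1.45 ± 0.31 (SE) in 2500 minus 1500 mg/kg, a difference that did not pass over all genes (adjusted p = 0.206). These contrasts share rats with the main one and are given side by side only.

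**Figure D2:**
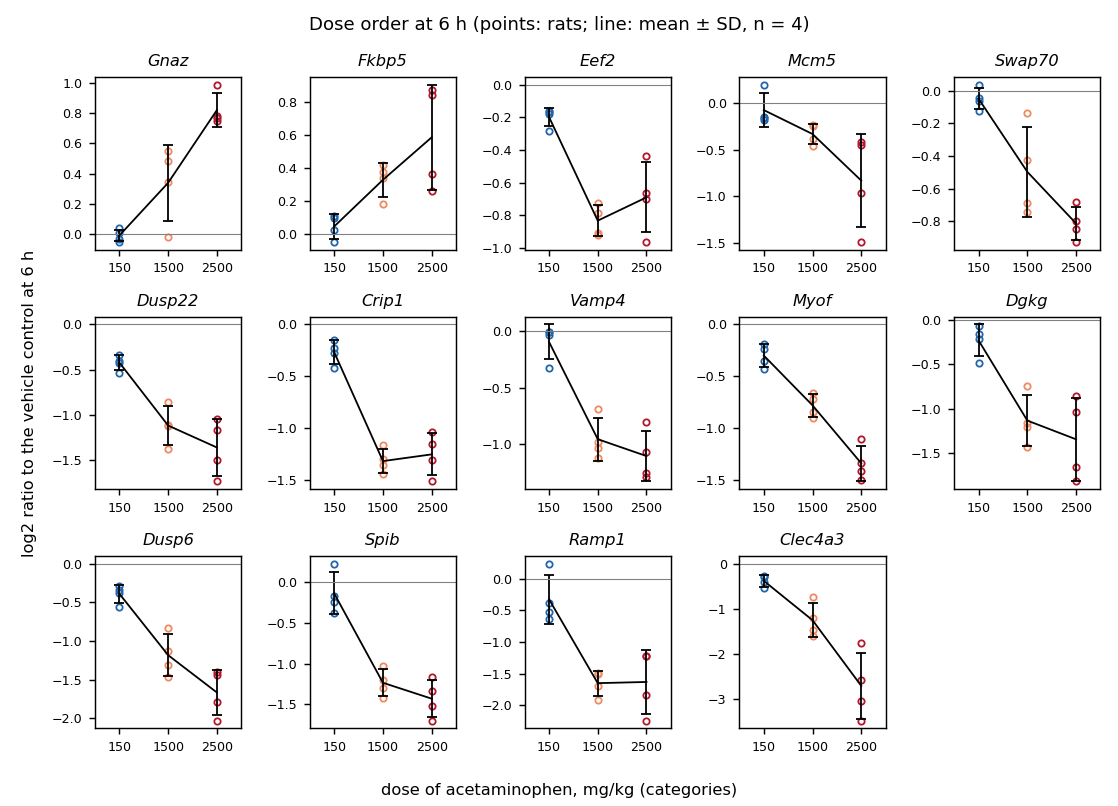
Log2 ratio to the vehicle control at 6 h (vertical axis, scaled for each gene) against dose in mg/kg as categories, for the 14 called genes; points are rats, and lines join group means with SD (n = 4). Means of Clec4a3, Myof and Gnaz step with dose, but Gnaz does not on the arrays with the treated rat in Cy5 alone. Ramp1, Crip1 and Eef2 stand at about the same value at 1500 and 2500 mg/kg. In Dgkg, Spib and Vamp4, among others, the rats of 1500 and 2500 mg/kg overlap.

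Median differences of gene lists moved with single rats: each of the 31 lists had a median that changed sign or moved by over 1.5 times when 1 of the 8 rats was left out, and 12 changed sign. Myeloid genes were described from the monocyte and macrophage list and the neutrophil list. Of 17 monocyte and macrophage genes measured, Clec4a3 passed (against 0.124% of all genes lower) and no other did, and 4 (23.5%) had an unadjusted p under 0.05, against 6.9% of all genes. The list's median difference was -0.02 (7 genes above 0, 10 below), against 0.00 over all 9653 genes, and its rat medians ranged from -0.08 to -0.01 at 2500 mg/kg and from -0.07 to -0.03 at 150 mg/kg. The rat medians overlapped between doses, unlike the values of Clec4a3. Lyz2, the lysozyme of macrophages and neutrophils, had log2 ratios of -1.64, -1.31, -3.04 and -2.84 at 2500 mg/kg, against -1.07, -0.35, -1.15 and -0.64 at 150 mg/kg (difference -1.41; adjusted p = 0.239). Ly86, which codes for the MD-1 partner of RP105, differed by -0.13 (0.347) and Mrc1, the macrophage mannose receptor, by 0.58 (0.566). In Lyz2, as in Clec4a3, rats 3597 and 3598 were the lowest of the 8.

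Of 17 neutrophil genes, 0 passed (limma; 4, or 23.5%, at an unadjusted p under 0.05, against 6.9% of all genes). The list's median difference was 0.01. Its members pulled apart. Il1r2, the decoy receptor of interleukin-1, had log2 ratios of 1.67, 1.37, 0.61 and 0.47 at 2500 mg/kg, against -0.14, -0.27, -0.17 and -0.07 at 150 mg/kg (difference 1.19; adjusted p = 0.132). Serpinb1a, an inhibitor of neutrophil proteases, had 1.68, 1.51, 0.76 and 0.74 at 2500 mg/kg, against -0.35, -0.04, 0.01 and -0.06 at 150 mg/kg (1.28; 0.587). In both, rats 3595 and 3596 were the higher ones. Fcnb, a ficolin of neutrophil granules, ran the other way, with -1.68, -1.45, -1.12 and -1.08 at 2500 mg/kg, against -0.65, -0.54, -0.64 and -0.50 at 150 mg/kg (-0.75; 0.188). Rat medians of the list ranged from -0.05 to 0.03 at 2500 mg/kg and from -0.06 to -0.02 at 150 mg/kg.

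Lymphocyte genes were read from 4 lists. Of 10 B cell genes, Spib passed (1 of 10, against 0.124% of all genes lower), and the median difference of the 10 was 0.00. An unadjusted p under 0.05 (limma) was found for 3 (30%), all lower, against 4.03% of all genes lower. In bulk blood, fewer cells of a type and less RNA per cell cannot be told apart. Ms4a1, the B cell antigen CD20, had log2 ratios of -0.60, -0.76, -0.69 and -0.61 at 2500 mg/kg, against -0.14, 0.10, -0.14 and -0.13 at 150 mg/kg (difference -0.59; adjusted p = 0.0858). Blnk, an adaptor of B cell receptor signalling, differed by -0.29 (0.637), and Cd79b, a signalling chain of that receptor, by -0.19 (0.879). Rats did not overlap for 4 of the 10, all lower, against 3.43% of all genes, and these were the members ranked first by adjusted p. The other 6 had a difference above 0. The rat medians of the whole list were -0.10 to -0.01 at 2500 mg/kg and -0.05 to -0.02 at 150 mg/kg.

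Of 19 T cell genes, 0 passed (limma; 2, or 10.5%, at an unadjusted p under 0.05, against 6.9% of all genes). Of the 19, 17 had a difference below 0. The median was -0.16, which ranged from -0.19 without rat 3589 to -0.05 without rat 3597. Lat, an adaptor of T cell receptor signalling, had log2 ratios of -0.54, -0.65, -1.74 and -1.67 at 2500 mg/kg, against -0.55, 0.05, -0.58 and -0.44 at 150 mg/kg (difference -0.77; adjusted p = 0.587). Cd5, an inhibitory receptor of T cells, had -0.34, -0.43, -2.08 and -1.54 at 2500 mg/kg, against -0.28, 0.23, -0.44 and -0.11 at 150 mg/kg (-0.95; 0.637). In both genes rats 3597 and 3598 were far below the control, while rats 3595 and 3596 lay among or near the rats of 150 mg/kg. Of 21 NK and cytotoxic genes 0 passed (4, or 19%, at an unadjusted p under 0.05). Ctsw, a protease of cytotoxic lymphocytes, stood at 0.33 (adjusted p = 0.493) and Gzmm, a granzyme, at -0.17 (0.611). Of 6 MHC class II genes 0 passed (1, or 16.7%, at an unadjusted p under 0.05), and RT1-Ba, an alpha chain, differed by -0.15 (0.505).

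Of 23 erythroid genes, 0 passed (limma), and 4 (17.4%) had an unadjusted p under 0.05, all higher, against 2.87% of all genes higher. Of the 23, 20 had a difference above 0. The median was 0.16, which ranged from 0.09 without rat 3596 to 0.18 without rat 3597. Rats did not overlap for 5 of the 23, all higher, against 2.54% of all genes. Tal1, a master transcription factor of red cell and platelet precursors, had log2 ratios of 0.52, 0.38, 0.32 and 0.22 at 2500 mg/kg, against -0.19, -0.25, -0.09 and -0.12 at 150 mg/kg (difference 0.52; adjusted p = 0.51). All rats of 2500 mg/kg were above the control and all rats of 150 mg/kg below it. Bnip3l, which clears mitochondria from reticulocytes, differed by 0.41 (0.654), Rhag, an ammonia channel of the red cell membrane, by 0.17 (0.654) and Tfrc, the transferrin receptor, by 0.13 (0.654). The rat medians of the list were 0.16, 0.10, -0.01 and 0.03 at 2500 mg/kg, against -0.10, -0.03, -0.03 and -0.12 at 150 mg/kg. Of 14 platelet genes 0 passed and 0 had an unadjusted p under 0.05 (limma), with a median of 0.04. Sparc, a matrix protein held in platelet granules, stood at -0.63 (0.728) and at 0.64 on the arrays with the treated rat in Cy3, Pf4, a platelet chemokine, at -0.38 (0.795) and Gp1bb, a chain of the von Willebrand factor receptor, at 0.27 (0.823).

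**Figure D3:**
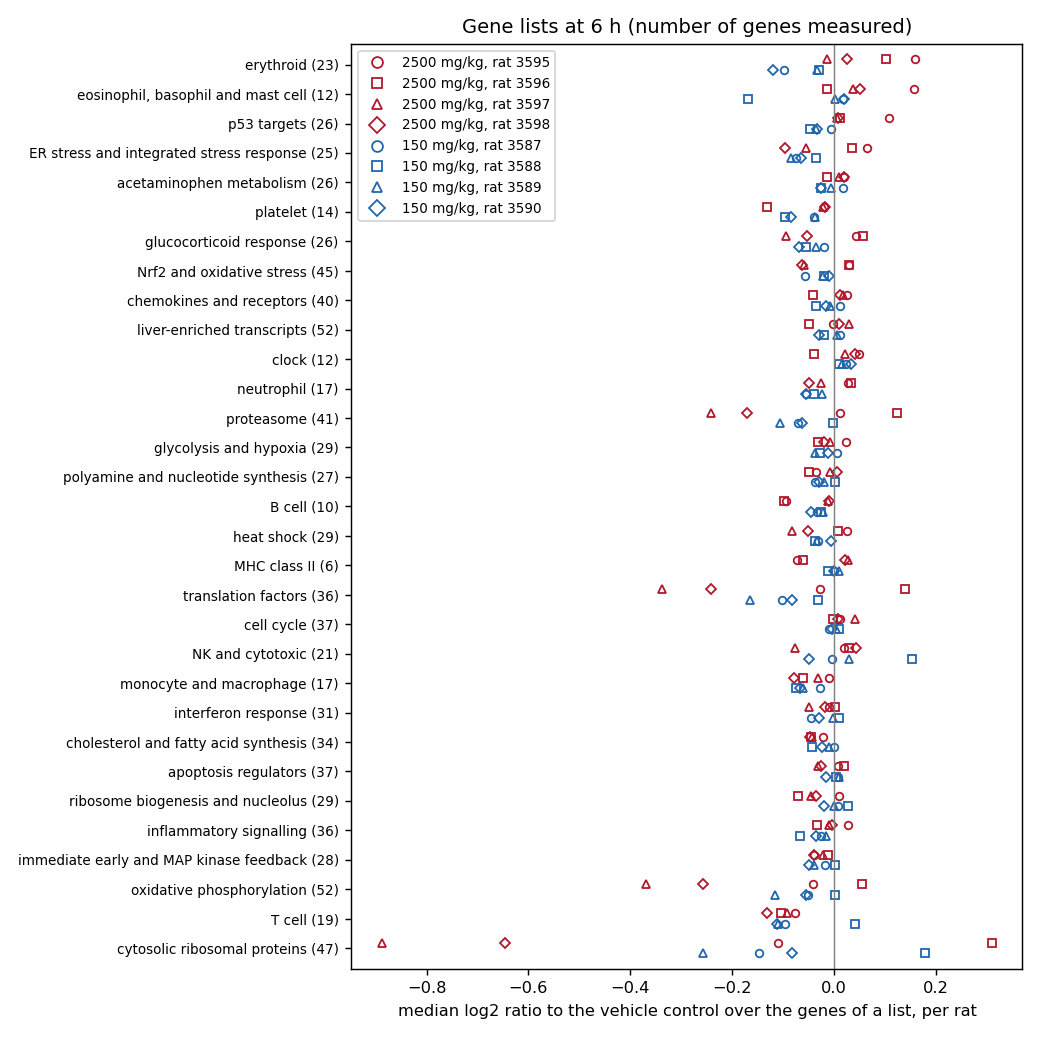
Median log2 ratio to the vehicle control over the genes of each of the 31 lists (horizontal axis), 1 symbol per rat; the upper row of a list holds the 4 rats of 2500 mg/kg and the lower row the 4 rats of 150 mg/kg, with the number of genes measured in brackets. Rats 3597 and 3598 (triangle and diamond at 2500 mg/kg) stand apart to the left for ribosomal protein, respiratory, translation and proteasome genes, where rats 3595 and 3596 do not.

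Signalling and stress genes were read from further lists. Of 28 immediate early and MAP kinase feedback genes, Dusp6 passed (1 of 28, lower, against 0.124% of all genes), 4 (14.3%) had an unadjusted p under 0.05, against 6.9% of all genes, and the median difference was -0.04. That median was 0.02 without the 2 arrays that stand apart. Klf4, a zinc finger factor of monocytes, had log2 ratios of -0.43, -0.32, -0.41 and -0.32 at 2500 mg/kg, against 0.02, -0.13, -0.06 and -0.10 at 150 mg/kg (difference -0.30; adjusted p = 0.117), with tight and separate groups. Nr4a1, an orphan nuclear receptor of immediate early kind, differed by -0.37 (0.542), and Dusp2, an ERK phosphatase of lymphocytes, by -0.65 (0.7). Of 26 glucocorticoid response genes, Fkbp5 passed (1 of 26, higher, against 0.0207% of all genes), 2 (7.69%) had an unadjusted p under 0.05 and 19 lay above 0. The median was 0.03, but -0.03 on the arrays with the treated rat in Cy5 and -0.01 without rat 3596.

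Of 26 p53 targets 0 passed (limma; 2, or 7.69%, at an unadjusted p under 0.05, against 6.9% of all genes). Of the 26, 18 lay above 0 and the median was 0.08. It fell to 0.02 without rat 3595 and 0.03 without rat 3596, and was 0.01 on the arrays with the treated rat in Cy5. Sat1, which acetylates spermidine and spermine for breakdown, had log2 ratios of 1.66, 2.44, 0.23 and 0.79 at 2500 mg/kg, against -0.07, 0.40, -0.02 and 0.06 at 150 mg/kg (difference 1.19; adjusted p = 0.47). Gadd45a, a growth arrest gene induced by DNA damage, had 1.64, 1.34, 0.11 and 0.21 at 2500 mg/kg, against -0.10, -0.26, -0.45 and -0.03 at 150 mg/kg (1.03; 0.551). In both genes rats 3595 and 3596 carried most of the difference. Of 25 genes of ER stress and the integrated stress response 0 passed (2, or 8%, at an unadjusted p under 0.05), with Ddit3 the nearest. Of the 25, 18 lay above 0 (median 0.08, or 0.02 without rat 3595 and 0.13 without rat 3597). Of 45 Nrf2 and oxidative stress genes 0 passed (1, or 2.22%, at an unadjusted p under 0.05), median 0.02. That gene was Me1, the NADPH-forming malic enzyme, at 0.29 (0.69). Of 29 heat shock genes 0 passed (3, or 10.3%, at an unadjusted p under 0.05), median 0.00. Cct5 and Tcp1, both chaperonin subunits, stood at -0.21 (0.587) and -0.42 (0.654), and Hspa4, an Hsp110 chaperone, at -0.63 (0.614).

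Of 37 apoptosis regulators 0 passed (limma; 7, or 18.9%, at an unadjusted p under 0.05, against 6.9% of all genes). Bcl2a1, a survival factor of the BCL2 family in leukocytes, had log2 ratios of -1.58, -1.64, -2.78 and -2.50 at 2500 mg/kg, against -0.14, -0.22, -0.50 and -0.18 at 150 mg/kg (difference -1.86; adjusted p = 0.0675), with no overlap between doses. Tnfrsf1b, a tumour necrosis factor receptor, stood at -0.25 (0.587). Mcl1, of the BCL2 family, and Ripk1, a kinase of death receptor signalling, ran the other way at 0.41 (0.592) and 0.22 (0.567). Of 31 interferon response genes 0 passed (3, or 9.68%, at an unadjusted p under 0.05) and the list was divided. Ifit3, an interferon-induced antiviral protein, had 1.77, 2.09, 0.08 and 0.89 at 2500 mg/kg, against -0.54, -0.17, -0.38 and -0.28 at 150 mg/kg (1.55; 0.186). Psmb8, an immunoproteasome subunit, differed by -0.67 (0.562), and Bst2, tetherin, by -0.59 (0.654).

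Of 47 cytosolic ribosomal protein genes 0 passed (limma; 3, or 6.38%, at an unadjusted p under 0.05, against 6.9% of all genes). Of the 47, 39 lay below 0. The median difference was -0.24, which ranged from -0.47 without rat 3596 to -0.06 without rat 3597. The rat medians were -0.11, 0.31, -0.89 and -0.65 at 2500 mg/kg, against -0.15, 0.18, -0.26 and -0.08 at 150 mg/kg. Rats 3597 and 3598 were the lowest of the 8 and rat 3596 the highest, so the doses overlapped. Rps13 had log2 ratios of -0.13, 0.35, -1.27 and -0.81 at 2500 mg/kg, against 0.05, 0.46, -0.16 and 0.07 at 150 mg/kg (difference -0.57; adjusted p = 0.713). Rps26 differed by -0.58 (0.707) and Rps12 by -0.41 (0.663). Of 36 translation factors Eef2 passed (1 of 36, lower, against 0.124% of all genes), while Eif4e2, a cap-binding protein, stood at 0.35 (0.654) and Eif5, which acts in start codon selection, at 0.42 (0.662). The median of the translation factors was -0.01, and 0.03 without rat 3597.

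Of 52 oxidative phosphorylation genes 0 passed (limma; 4, or 7.69%, at an unadjusted p under 0.05, against 6.9% of all genes). Of the 52, 43 lay below 0. The median was -0.11, which ranged from -0.23 without rat 3596 to -0.02 without rat 3597. Atp5mc2, a subunit of the ATP synthase ring, stood at -0.21 (0.626). Ndufa4, a subunit of the respiratory chain, had log2 ratios of -0.24, -0.03, 0 and 0.55 at 2500 mg/kg, against 1.86, 1.07, 1.19 and 0.70 at 150 mg/kg (difference -1.14; adjusted p = 0.626). The doses did not overlap in Ndufa4, in which rats of 150 mg/kg were all above the control and rat 3597 was listed at exactly 0. Sdhb, a subunit of succinate dehydrogenase, had log2 ratios of -0.37, -0.47, -1.49 and -1.65 at 2500 mg/kg, against -0.43, -0.30, -0.52 and -0.38 at 150 mg/kg (difference -0.59; adjusted p = 0.694). In Sdhb the low values were again those of rats 3597 and 3598. Pfkp, a phosphofructokinase of glycolysis, had -0.80, -0.78, -0.78 and -0.93 at 2500 mg/kg, against -0.05, -0.03, -0.31 and 0.35 at 150 mg/kg (-0.81; 0.587). Sqle, an epoxidase of cholesterol synthesis, differed by -1.02 (0.321), with rat 3589 the highest at 0.99.

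Among 52 liver-enriched transcripts 0 passed (limma; 5, or 9.62%, at an unadjusted p under 0.05, against 6.9% of all genes). The median difference was 0.01. Tf, the plasma iron carrier, had log2 ratios of 0.72, 0.70, -0.29 and -0.23 at 2500 mg/kg, against -0.80, -0.49, -0.68 and -0.60 at 150 mg/kg (difference 0.87; adjusted p = 0.587). C3, the central complement protein, had -0.78, -0.76, -1.26 and -1.80 at 2500 mg/kg, against -0.52, -0.22, -0.58 and -0.53 at 150 mg/kg (-0.69; 0.497). Of 26 genes of acetaminophen metabolism 0 passed (2, or 7.69%, at an unadjusted p under 0.05), median 0.05. Of the 31 lists, 25 had no member past the threshold, and in 6 lists 1 member passed.

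The same contrast of doses was far wider at 24 h. At 24 h, 738 of 9653 genes passed (7.65%; limma), 247 higher (2.56%) and 491 lower (5.09%) at 2500 mg/kg, while at 12 h 0 passed (0%; 529 or 5.48% at an unadjusted p under 0.05). Of the 14 genes of 6 h, 7 passed at 24 h too, which is 50% of the 14 and 0.949% of the 738, and 5 of these kept their direction. Those were Clec4a3, at -1.86 ± 0.31 (SE; adjusted p = 0.000311), Ramp1 at -1.23 ± 0.27 (0.00504), Crip1 at -0.83 ± 0.18 (0.00457), Dusp6 at -0.78 ± 0.24 (0.0421) and Swap70 at -0.48 ± 0.14 (0.0379). At 12 h (4 rats of 2500 mg/kg, 3 of 150 mg/kg) none of the 14 passed and 11 had the sign of 6 h. The share of signs over all genes was not counted. Clec4a3 stood at -0.08 at 12 h, with rats of 2500 mg/kg spread from -1.35 to 0.05.

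The change of the contrast from 6 to 24 h was tested itself. It passed for 182 genes (1.89%), 29 upward (0.3%) and 153 downward (1.58%). Of the 14 genes, 2 were among them, and both turned round. Gnaz was at -0.44 ± 0.06 at 2500 mg/kg, against 0.01 ± 0.34 at 150 mg/kg at 24 h (SD, n = 4 rats each), a difference of -0.45 where that of 6 h was 0.83 (change -1.28 ± 0.19 SE; adjusted p = 0.000444). Myof was at 0.62 ± 0.30 at 2500 mg/kg, against 0.00 ± 0.09 at 150 mg/kg at 24 h, a difference of 0.62 where that of 6 h was -1.04 (change 1.66 ± 0.27; 0.00067).

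Among the genes that passed, the 3 largest upward changes were those of S100a8, Serpinb1a and S100a9. S100a8 and S100a9 code for both chains of calprotectin, a protein of neutrophil cytosol. At 6 h S100a8 had log2 ratios of 0.24, 0.04, -1.68 and -1.46 at 2500 mg/kg, against -0.34, -0.50, -0.26 and -0.08 at 150 mg/kg (difference -0.42; adjusted p = 0.953). S100a9 had 0.74, 1.10, -0.997 and -0.52 at 2500 mg/kg, against -0.26, 0.05, -0.15 and 0.17 at 150 mg/kg (0.13; 1). In both, rats 3595 and 3596 were above the control and rats 3597 and 3598 below it, and the sign of S100a9 turned without rat 3595 (-0.09) or rat 3596 (-0.21). At 24 h the differences were 3.41 and 3.24, and the changes 3.83 ± 0.67 (SE; adjusted p = 0.00137) and 3.11 ± 0.76 (0.0265). Serpinb1a changed by 3.14 ± 0.70 (0.0131), with a difference of 4.42 at 24 h and 1.28 at 6 h.

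The 3 largest downward changes were those of Cmas, which activates sialic acid, Gpx1, a glutathione peroxidase abundant in red cells, and Kpna1, an importin. At 6 h their differences were 0.30, 0.17 and 0.33, none past the threshold, and at 24 h -1.91, -1.90 and -1.65. Kpna1 had log2 ratios of 0.22, 0.35, -0.47 and -0.38 at 2500 mg/kg, against -0.41, -0.49, -0.38 and -0.35 at 150 mg/kg at 6 h. The changes were -2.21 ± 0.33 (SE; adjusted p = 0.000444), -2.07 ± 0.38 (0.002) and -1.98 ± 0.27 (0.000184). Tal1 (change -1.31 ± 0.25; 0.00312) and Bnip3l (-1.16 ± 0.24; 0.00813), both of the erythroid list, went the same way. Rhag and Tfrc, of that list too, had no called change. The erythroid median difference was 0.16 at 6 h and -0.22 at 24 h, given as a description.

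**Figure D4:**
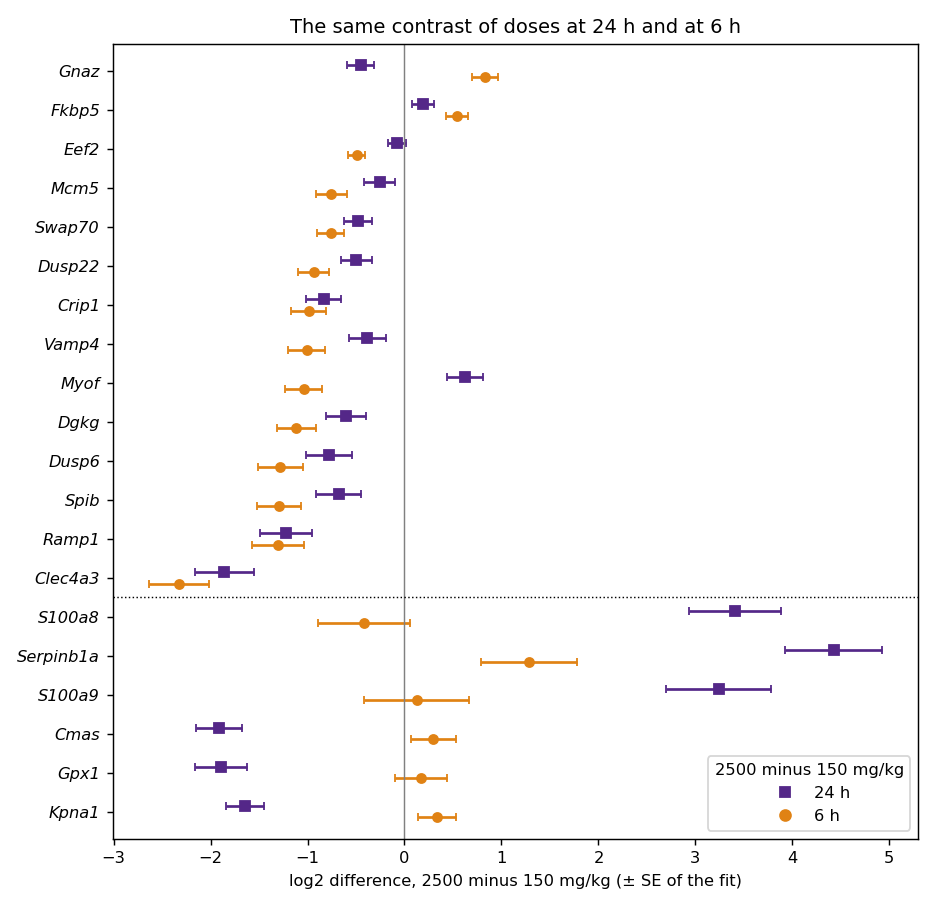
Difference in log2 ratio, 2500 minus 150 mg/kg (horizontal axis, ± SE of the fit), at 24 h (squares) and at 6 h (circles), for the 14 genes called at 6 h (above the dotted line) and the 6 genes with the largest changes between the times (below it). Clec4a3 is low at both times, Gnaz and Myof change sign, and S100a8 moves to 3.41 at 24 h, against -0.42 at 6 h.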

How the data were processed

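Whole blood of rats was measured on 2-colour oligonucleotide arrays, 2 per rat with the dyes exchanged. The authors deposited a log10 ratio of both dyes for 22075 probes per array. Their background correction and normalization are not given in the sources used here. Array medians lay between -0.00352 and 0. On the 16 arrays compared, 2.46% of the values were exactly 0 and 0.300% lay at the largest absolute value of 2, and neither kind touched the 14 genes called.

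Ratios were multiplied by 3.32 to give log2, turned to treated over vehicle by the dyes on the labels (ratio taken as Cy5 over Cy3) and averaged per rat, so n counts rats. Of the probes, 12750 were listed with 1 gene, and 12720 of these were named through Entrez identifiers with GRCr8 symbols. Probes were averaged to 9653 genes, 2266 with over 1 probe. A model with 9 group means was fitted to all 34 rats (limma 3.58.1, R 4.3.3, package data.table in version 1.17.8; 25 residual degrees of freedom), with Benjamini-Hochberg adjustment over all genes or probes at 0.05. The fit was tested on simulated data. Sequences were searched with Python 3.11.15 and pandas 2.3.3, and figures drawn with matplotlib 3.10.9. Nothing shows whether replicate rats shared a cage or a day.

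The genes named are all that passed with separate groups (up to 12 in each direction), 6 by unadjusted p where under 5 passed in a direction, from each list described at most the 4 members ranked first by adjusted p, and 3 changes to 24 h in each direction. The rats compared, the 31 gene lists and these rules were chosen with earlier results of these data known. Alternatives were other sets of rats in the fit, each rat left out, array scaling, a dye profile, single dye orientations, zeros as missing, robust moderation, median probes and arrays with the rat as a block.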

Additional observations from a re-analysis of the deposited data

Results flagged for a closer look

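In 222 groups of 4 rats (80 genes and 31 list medians at both doses) a rat was set apart where its gap to the nearest rat, over the group's range, passed the 95% critical value of Dixon's test. This held in 13 groups, where chance at 1 in 20 gives about 11.1. Of the 13, 8 were rat 3588 at 150 mg/kg. It read 0.19 for Mcm5, -0.28 for Eef2, 0.10 for Ms4a1, -0.22 for Rhag, -0.85 for Sparc and 0.22 for Dusp2, and had medians of 0.0416 for the T cell list and -0.17 for the list of eosinophil, basophil and mast cell genes. Its Cy3 array is also the one with the lowest median correlation of that orientation at 6 h. Rat 3589 at 150 mg/kg read -0.33 for Vamp4. At 2500 mg/kg, rat 3595 read 0.99 for Gnaz and had a p53 target median of 0.11, rat 3596 had a platelet median of -0.13, and rat 3598 read -0.93 for Pfkp.

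The difference between doses changed from 6 to 24 h for 1.89% of all genes. For 21 of the 80 genes examined here, which include 6 picked for the largest such changes and others picked for their differences at 6 h, the difference between 2500 and 150 mg/kg was not the same at 24 h and at 6 h by the test of the change itself (limma, adjusted p under 0.05). Upward changes on the log2 scale were S100a8 3.83, Serpinb1a 3.14, S100a9 3.11, Bcl2a1 2.79, Myof 1.66 and C3 1.43. Bcl2a1, at -1.86 at 6 h, stood at 0.93 at 24 h (adjusted p = 0.166). Downward changes of members of the erythroid and platelet lists were Tal1 -1.31, Bnip3l -1.16 and Gp1bb -1.42. Rhag, Tfrc, Pf4 and Sparc, of the same lists and also examined, had no called change. The other downward changes were Cmas -2.21, Gpx1 -2.07, Kpna1 -1.98, Odc1 -1.34, Gnaz -1.28, Wdr26 -1.23, Eif4e2 -1.21, Ddit3 -1.03, Eif5 -0.97, Me1 -0.74, Ctsw -0.70 and Hbs1l -0.57.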

How the results depend on the processing

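The count of 14 genes was 8 with the 8 rats alone (5 shared), 39 with the 12 rats of 6 h (9 shared), 87 with arrays scaled to the same spread (14 shared; 17 higher and 70 lower), 22 with the treated rat in Cy5 only (8 shared), 466 with it in Cy3 only (13 shared), 55 with all arrays and the rat as a block (13 shared) and 3 without rats 3595 and 3588 (2 shared). The count of 18 probes was 7, 44, 121, 62, 1025 and 86 under the first 6 of these, and 31 without the 2 arrays that stand apart at 6 h, where the genes were 20 (14 shared). Leaving out 1 of the 8 rats gave 3 to 14 genes and 3 to 25 probes, and leaving out rat 3631 of 24 h gave 17 genes and 25 probes. The 182 genes that changed to 24 h became 100 with only the rats of 2500 and 150 mg/kg at 6 and 24 h, and 129 to 246 with 1 rat left out. In the fit with the rat as a block, the consensus correlation between a rat's arrays was -0.0156 for genes and -0.0345 for probes. Arrays thus entered that fit almost as independent samples, and its counts do not rest on rats as n. The omissions of both rats and of both arrays were chosen after seeing the data. Clec4a3 kept its call in 20 of the 21 alternatives, Gnaz and Dusp22 in 19, Fkbp5 in 10 and Mcm5 in 8. No direction of the 14 genes turned, but most of the alternatives could not turn one. With groups that do not overlap, leaving out rats cannot change the sign. Fits that change only the estimate of the spread leave the difference as it was. Reversed values were those of S100a9, -0.0948 without rat 3595, -0.215 without rat 3596 (-0.215 to 0.485 over single rats left out) and -0.062 without rats 3595 and 3588, of Ctsw, -0.0722, and of Sparc, 0.644, with the treated rat in Cy3 only, and of Mrc1, -0.0499 without the 2 arrays. For these the cause was not tested. No paired analysis was possible because the rats of both doses carry different numbers. The files give no signal over background.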
